A study of Homo sapiens with 15 samples.

Results

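Of the 1128 genes on the array whose symbol begins with LINC and whose probe carries a RefSeq accession of a noncoding transcript, 252 gave a signal well above background on all 15 arrays, and these 252 LINC RNAs are described here. They were selected on measured values, namely the detection flag of the extraction software on every array and, for a gene with several probes that passed, the highest mean signal. The 15 arrays are single-color Agilent arrays of A2058 cells, an established human melanoma cell line, after 8 hours in medium with a compound or its solvent, with 3 replicates in each of 5 groups. NP was given at 3 µM and compared with DMSO. Metformin (MET) was given at 5 mM and phenformin (PHEN) at 50 µM, and both were compared with water (W). All arrays came from this 1 cell line, the replicates were described as independent experiments, and the medium was EMEM with serum in every group. The deposited labels call the first compound NP and the title of the series calls it neopetasin, whereas the dose, time and cell line are those of petasin (PT) in the study, and the array data cannot tell these compounds apart. LINC00662 was singled out with its rise under NP already known, so that its values under NP are a description and not an independent test.

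Long intergenic noncoding RNAs are transcribed from their own promoters outside protein-coding genes, are usually spliced and polyadenylated, and are not translated into a known protein. A symbol that begins with LINC is given to such a gene when no function has been settled, so that the name marks a position in the genome and not a pathway. Some act on chromatin or on transcription factors in the nucleus and others bind proteins or microRNAs in the cytoplasm, and many are transcribed at low levels and in few cell types. NP, metformin and phenformin enter this study as inhibitors of complex I of the mitochondrial respiratory chain. Loss of respiration activates the integrated stress response, in which ATF4 drives genes of amino acid synthesis and transport through C/EBP-ATF response elements.

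The promoter of LINC00662 is shown because it was the only one of the 252 RNAs whose change under a compound passed the threshold, and those of LINC00640, LINC01397 and LINC00265 are shown because they held a motif that ATF4 or its relatives bind. Each sequence runs 5′ to 3′ on the strand of the gene from 250 bases before to 50 bases after the RefSeq start (GRCh38.p14). LINC00662 lies on the minus strand and the other 3 on the plus strand. Capitals mark TGATGNAA, a C/EBP-ATF response element, on either strand in LINC00640 and LINC01397, and TGACGTCA, the cAMP response element, in LINC00265.
LINC00662, chr19:27793891-27794190: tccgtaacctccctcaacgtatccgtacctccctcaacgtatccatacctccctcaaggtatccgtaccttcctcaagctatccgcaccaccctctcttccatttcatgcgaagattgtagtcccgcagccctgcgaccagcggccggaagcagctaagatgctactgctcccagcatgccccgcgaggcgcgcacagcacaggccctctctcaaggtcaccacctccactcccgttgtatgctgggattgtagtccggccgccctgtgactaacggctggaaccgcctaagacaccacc
LINC00640, chr14:51333143-51333442: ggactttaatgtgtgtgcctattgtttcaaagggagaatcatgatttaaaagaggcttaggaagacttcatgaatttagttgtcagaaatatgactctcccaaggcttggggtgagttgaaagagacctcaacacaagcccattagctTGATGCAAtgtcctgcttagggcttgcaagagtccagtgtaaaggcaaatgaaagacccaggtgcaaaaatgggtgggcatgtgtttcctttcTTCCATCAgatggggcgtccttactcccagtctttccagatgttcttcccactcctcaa
LINC01397, chr1:110082438-110082737: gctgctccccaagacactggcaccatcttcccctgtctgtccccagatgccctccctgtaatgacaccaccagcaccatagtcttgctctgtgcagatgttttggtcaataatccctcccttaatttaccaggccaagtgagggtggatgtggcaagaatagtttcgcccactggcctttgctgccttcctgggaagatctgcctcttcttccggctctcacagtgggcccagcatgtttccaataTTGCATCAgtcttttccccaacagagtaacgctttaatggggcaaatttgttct
LINC00265, chr7:39733318-39733617: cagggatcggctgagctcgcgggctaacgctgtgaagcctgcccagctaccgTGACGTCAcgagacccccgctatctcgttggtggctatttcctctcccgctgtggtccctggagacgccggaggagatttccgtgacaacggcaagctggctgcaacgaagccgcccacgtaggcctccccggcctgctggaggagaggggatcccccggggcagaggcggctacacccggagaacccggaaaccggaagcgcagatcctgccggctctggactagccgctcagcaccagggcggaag

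A promoter entry was found for 176 of the 252 LINC RNAs. TGATGNAA was present in 2 of these promoters (1.14%), in 42 of 621 promoters of the other LINC genes on the array (6.76%) and in 3.67% of 27305 RefSeq promoters of the same length. TGACGTCA was present in 1 of the 176 (0.568%), in 0.805% of the promoters of the other LINC genes and in 1.98% of all promoters. None of the 176 promoters held both motifs. The promoter of LINC00662 held neither motif, which says only that these letters are not in this window. None of the 3 RNAs with a motif passed the threshold with any compound. Under NP, LINC00640 lay 0.06 above DMSO on the log2 scale (SE 0.11), LINC01397 lay 0.09 above it (SE 0.27), and LINC00265 lay 0.18 above it (SE 0.16). The promoters of the 176 were richer in G and C than those of the other LINC genes, with a median GC content of 55.5% against 46.7%, and poorer than those of protein-coding genes, with 62.7%. A protein-coding gene started on the opposite strand within 1000 bases in 8 of the 176 (4.55%) and in 7 of the 621 (1.13%). Among the 8 were LINC00205 beside POFUT2, LINC01389 beside FOXD2 and LINC00685 beside GTPBP6.

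The arrays held no saturated spot, and 25804 to 45043 probes were well above background on each. The control and NP arrays of the DMSO set were hybridized on other slides than those of the water set, and slide and solvent cannot be told apart. NP replicate 2 stood apart by its spike-in detection limit, 2.28 against 0.549 to 1.74 on the other arrays, and the calls under NP are therefore also given without it. Of 11 markers of the melanocyte lineage and melanoma, 10 were detected on all 15 arrays and TYR on 13. EPCAM and CDH1, which mark epithelium, were detected on 0 arrays, whereas the blood cell marker PTPRC and the endothelial markers PECAM1 and CDH5 were detected on all 15.

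Detection of LINC genes differed between arrays and was lower than that of other genes. On all 15 arrays, 22.3% of the LINC genes were well above background, against 39.7% of 3141 other genes with a noncoding accession and 68.6% of 18208 genes with a coding accession. A total of 210 LINC genes were above background on no array. In the DMSO set, 392, 376 and 297 LINC genes were detected on the DMSO arrays and 436, 329 and 325 on the NP arrays. In the water set, the numbers were 813, 592 and 452 with water, 805, 617 and 430 with MET, and 531, 518 and 443 with PHEN. The replicate 1 arrays of water and MET thus detected more LINC genes than any of the other arrays, and no array of the water set detected fewer than 430. The same arrays stood at the ends over all probes, with 45043 and 44450 probes above background on replicate 1 of water and MET and 25804 on DMSO replicate 3, so that the order is not particular to LINC genes. Genes detected on all 3 arrays of a group numbered 267 with DMSO, 267 with NP, 440 with water, 415 with MET and 429 with PHEN.

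Signals are given as log2 of the processed signal relative to the 75th percentile of the array, so that 0 is the level of that percentile. Brightness depends on the probe, and no order of RNA amounts between genes is read from it. The mean signal of the 252 LINC RNAs ran from -3.16 to 8.53 with a median of -0.90, and 80 lay above the 75th percentile. The brightest were LINC01356 at 8.53, LINC01001 at 6.16, LINC02138 at 5.77, LINC00869 at 5.72 and LINC00504 at 5.58, followed by LINC00673 at 4.85, LINC01122 at 4.57, LINC01088 at 4.44, LINC00205 at 4.23 and LINC00473 at 3.87. LINC00473 is an RNA induced by cAMP signaling through CREB, and LINC00673, also known as SLNCR, has been described in the invasion of melanoma cells. At the edge of detection, LINC01907 (-3.16), LINC00857 (-3.06) and LINC01819 (-2.99) were the dimmest that were included. LINC02740 (-1.12) and LINC01501 (-2.17) were left out because they were not above background on DMSO replicate 3, and LINC02375 (-2.35) because of NP replicate 2. A further 192 genes on the array carry another symbol now and a LINC symbol only as a former name, 85 of them detected on all 15 arrays, and these were not included. The signal varied among replicates with a median SD of 0.27 in DMSO, 0.30 in NP, 0.22 in water, 0.25 in MET and 0.12 in PHEN.

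LINC00662, an RNA described as promoting growth in several tumor types, was upregulated in NP-treated cells. Its only probe (NR_027301) read 0.10, 0.10 and 0.00 on the 3 DMSO arrays and 0.78, 0.98 and 0.92 on the 3 NP arrays, so that all NP arrays lay above all DMSO arrays. The mean was 0.07 ± 0.06 with DMSO and 0.90 ± 0.10 with NP (SD, n = 3). The log2 fold change was 0.83 (SE 0.10, 95% interval 0.61 to 1.04), with an adjusted p of 0.0295 over the 26826 features fitted with limma. The differences in the 3 same-numbered pairs were 0.68, 0.88 and 0.92. The fold change stayed between 0.69 and 0.90 under 17 settings, whereas the call was lost without NP replicate 2 (0.77, adjusted p = 0.204), without replicate 1, 2 or 3 of every group (adjusted p = 0.392, 1.00 and 0.288), with no filter on dim probes (adjusted p = 0.21), when only the NP and DMSO arrays were fitted (adjusted p = 0.671), and by the methods' paired test after Benjamini-Hochberg adjustment (adjusted p = 0.607).

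LINC00662 also lay higher with both biguanides than with water, by less and without passing the threshold. The water arrays read -0.10, 0.05 and 0.12, the MET arrays 0.29, 0.24 and 0.46, and the PHEN arrays 0.44, 0.40 and 0.50. No MET or PHEN array overlapped the water arrays. The log2 fold change was 0.31 with MET (SE 0.10, 95% interval 0.09 to 0.52, adjusted p = 1.00) and 0.42 with PHEN (SE 0.10, 95% interval 0.21 to 0.64, adjusted p = 0.909). Before adjustment the limma p was 0.00996 with MET and 0.00144 with PHEN. The water arrays serve both comparisons, and the doses of the biguanides differ, so that the values of MET and PHEN are given side by side only. As a difference of differences, the change under NP exceeded that under MET by 0.52 (95% interval 0.21 to 0.82, adjusted p = 1.00) and that under PHEN by 0.40 (95% interval 0.10 to 0.71, adjusted p = 1.00). The difference from DMSO to water was not part of any of these values.

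**Figure D1:**
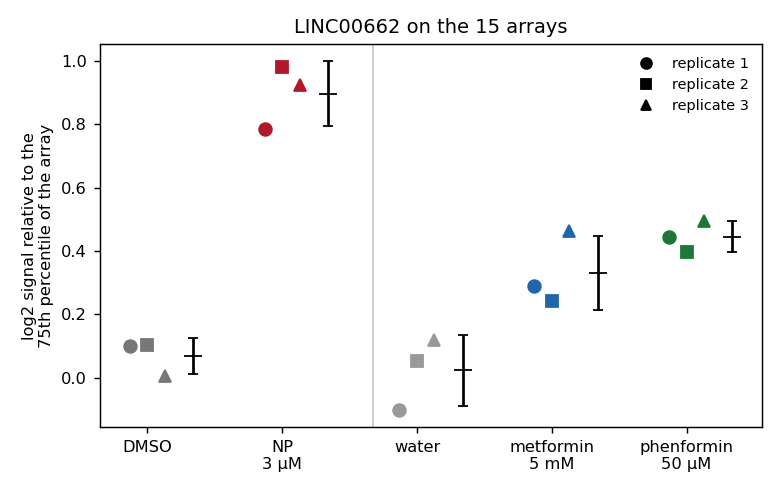
Signal of LINC00662 (vertical axis, log2 relative to the 75th percentile of the array) on each of the 15 arrays, with the mean and SD of each group as a bar to the right of its points and the replicate number as the marker. The NP arrays sit between 0.78 and 0.98 and the DMSO arrays between 0.00 and 0.10, and the MET and PHEN arrays sit above all water arrays.

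Under NP, LINC00662 was the only one of the 252 LINC RNAs past the threshold, an adjusted p of at most 0.05 and a change of at least 1.5-fold in either direction. In the same comparison 10 of all 26826 features passed (0.0373%). Without NP replicate 2, limma called 0 of the 252 LINC RNAs and 0 of all features. In that setting 8 LINC RNAs had an unadjusted p of at most 0.05, or 3.17% against 4.13% of all features. With NP replicate 2 kept, 9 had an unadjusted p of at most 0.05 regardless of size, 6 higher and 3 lower under NP. That is 3.57% of the LINC RNAs against 4.69% of all features. With the fold threshold in addition there were 3, LINC00662, LINC01819 and LINC00592, or 1.19% against 2.33%. With the replicate numbers paired within each set of slides, 29 LINC RNAs had an unadjusted p of at most 0.05, or 11.5% against 11.5%. The median log2 fold change was -0.02 over the LINC RNAs and -0.01 over all features. The 3 NP arrays lay wholly above the DMSO arrays in 8 of 251 LINC RNAs with complete values and wholly below them in 5, which is 5.18% against 6.45% of all features. The 95% interval of the fold change lay within 1.5-fold in either direction for 132 of the 252.

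Besides LINC00662, 3 RNAs lay higher with NP in all 3 pairs at an unadjusted p of at most 0.05, and none passed the adjusted threshold. LINC01819 read -3.16, -3.13 and -3.14 with DMSO and -1.23, -2.78 and -3.06 with NP. The NP arrays all lay above the DMSO arrays, but the difference of 0.79 (SE 0.31, adjusted p = 0.996) came mostly from NP replicate 1, and a second probe of the gene, above background on 13 arrays, showed -0.06. Without replicate 1 the difference was 0.22. LINC01667 read -2.05, -1.53 and -1.51 with DMSO and -1.61, -0.85 and -1.13 with NP, a difference of 0.50 (SE 0.21, adjusted p = 1.00), which was 0.33 without NP replicate 2, and its second probe showed 0.17. These groups overlapped. LINC02696 read -2.22, -2.05 and -1.70 with DMSO and -1.76, -1.61 and -1.25 with NP. The groups overlapped, although the 3 pairs differed by 0.45, 0.44 and 0.45 (SE 0.18, adjusted p = 1.00), and its second probe showed 0.24.

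The 3 RNAs that lay lower with NP by the same rule were LINC01311, LINC00944 and LINC01777. LINC01311 read -0.50, 0.19 and -0.76 with DMSO and -0.72, -0.76 and -0.92 with NP, which overlapped, with a difference of -0.44 (SE 0.18, adjusted p = 1.00) that was -0.19 without replicate 2. LINC00944 read -1.71, -1.69 and -1.72 with DMSO and -1.76, -2.42 and -2.12 with NP, so that the groups did not overlap, with a difference of -0.40 (SE 0.14, adjusted p = 0.931) that was -0.24 without NP replicate 2. Its 3 other probes, above background on 13 or 14 arrays, showed -0.19, -0.19 and 0.16. LINC01777 read -2.79, -2.68 and -2.72 with DMSO and -3.15, -3.05 and -3.03 with NP, again without overlap and with pairs close together, with a difference of -0.35 (SE 0.11, adjusted p = 0.878). Between DMSO and water LINC01777 differed by -0.77, more than between NP and DMSO. Size of change alone named other RNAs. LINC00310 had the largest mean difference under NP, 1.12 (SE 0.68, adjusted p = 1.00), and this came from NP replicate 2, which read 0.67 where the other 14 arrays read -3.04 to -2.42. LINC00592 differed by 0.73 (SE 0.27, adjusted p = 0.975), with pairs of -0.15, 1.42 and 0.92, and LINC01725 by 0.76 (SE 0.64, adjusted p = 1.00), where NP replicate 3 read -0.48 and replicates 1 and 2 read -3.14 and -3.00.

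**Figure D2:**
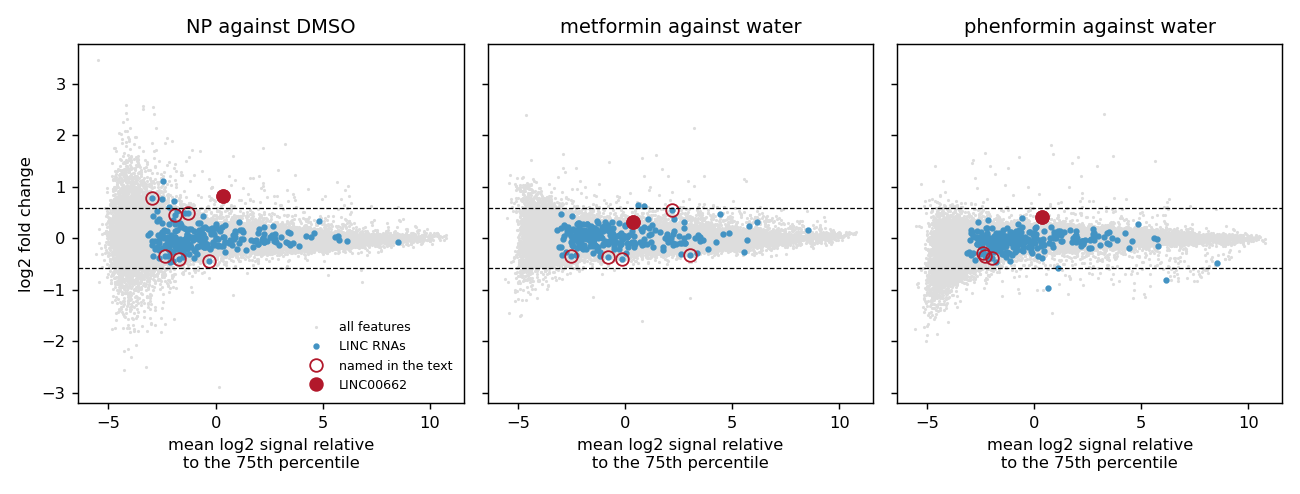
Log2 fold change (vertical axis) against mean signal (horizontal axis, log2 relative to the 75th percentile) in NP against DMSO, metformin against water and phenformin against water. Grey points are all 26826 features, blue points the 252 LINC RNAs, open red circles those named by the rule for each comparison and the filled red circle LINC00662, and the dashed lines mark 1.5-fold. Of the LINC RNAs, 6 lie beyond 1.5-fold with NP (2.38% against 6.48% of all features), 2 with metformin (0.794% against 1.92%) and 2 with phenformin (0.794% against 4.49%). All features passed a looser detection filter than the LINC RNAs.

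Under MET, 0 of the 252 LINC RNAs and 0 of the 26826 features (0.0%) passed the threshold in limma. At an unadjusted p of at most 0.05 there were 6 LINC RNAs, 2 higher and 4 lower, or 2.38% against 2.46% of all features. With the numbers paired within each set of slides there were 27 of the 252, against 9.29% of all features. Of the 6 in the main fit, 0 reached 1.5-fold, against 0.444% of all features in that fit. The median log2 fold change was 0.03 over the LINC RNAs and 0.00 over all features. The groups did not overlap in 11 of 249 LINC RNAs (4.42% against 5.76%), with MET above water in 5 and below it in 6. The 95% interval lay within 1.5-fold for 126 of the 252.

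LINC00900 read 2.74, 2.00 and 1.61 with water and 3.42, 2.55 and 2.04 with MET. The groups overlapped because the replicates of both groups differed widely, while the pairs differed by 0.68, 0.55 and 0.43 (mean 0.55, SE 0.25, adjusted p = 1.00). A second probe of LINC00900 on all 15 arrays showed 0.10. LINC01910 read -0.48, -0.43 and -0.37 with water and -0.76, -0.80 and -0.80 with MET, without overlap (-0.36, SE 0.12, adjusted p = 1.00). LINC00467, an RNA described in the proliferation of several tumor types, read 3.11, 3.34 and 3.40 with water and 2.94, 3.00 and 2.94 with MET, also without overlap (-0.32, SE 0.12, adjusted p = 1.00). Its second probe showed -0.36. LINC00882 differed by -0.34 (SE 0.14, adjusted p = 1.00), and -0.22 without replicate 3. Its other probes showed -0.06 and, on the probe above background on 13 arrays, 0.32, so that the probes disagree in direction. LINC01004 differed by -0.40 (SE 0.15, adjusted p = 1.00), with pairs of -0.66, -0.54 and 0.00.

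Under PHEN, 0 of the 252 LINC RNAs passed the threshold in limma, against 7 of all features (0.0261%). At an unadjusted p of at most 0.05 there were 5, with LINC00662 higher and 4 lower, or 1.98% against 2.35% of all features, and 0 of these reached 1.5-fold, against 1.04% of all features. With the numbers paired within each set of slides there were 22 at an unadjusted p of at most 0.05, or 8.73% against 7.1%. The median log2 fold change was -0.06 over the LINC RNAs and -0.03 over all features, and 160 of the 252 lay below 0 (63.5% against 59.5%). Without replicate 1 the number below 0 was 134 of the 252, with 54.7% of all features below 0. With quantile normalization it was 136, with 46.7% of all features below 0. The groups did not overlap in 25 of 250 LINC RNAs (10.0% against 8.13%), with PHEN above water in 8 and below it in 17. The 95% interval lay within 1.5-fold for 134 of the 252. LINC01140 read -2.22, -1.94 and -1.76 with water and -2.39, -2.33 and -2.35 with PHEN, without overlap, and the PHEN arrays lay close together (-0.38, SE 0.16, adjusted p = 1.00). LINC01588 differed by -0.35 (SE 0.15, adjusted p = 1.00) and LINC00858 by -0.29 (SE 0.12, adjusted p = 1.00), which was -0.17 without replicate 3. With MET, LINC01588 differed from water by -0.33 and LINC00858 by -0.14.

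**Figure D3:**
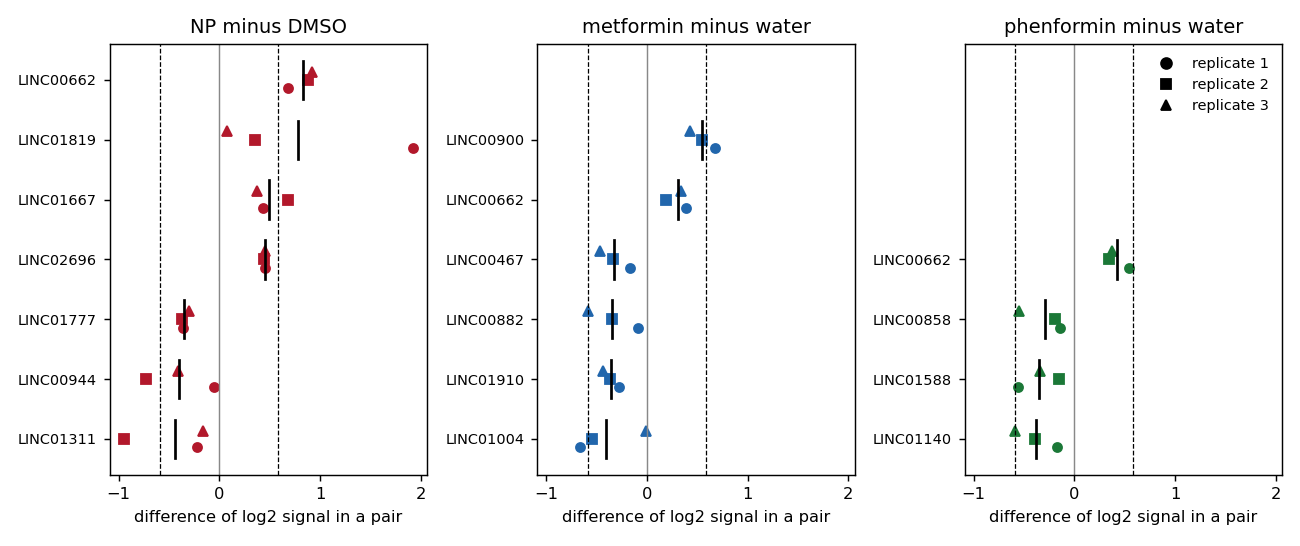
Difference of log2 signal between compound and vehicle (horizontal axis) in each of the 3 same-numbered pairs for the LINC RNAs named by the rule in each comparison. The vertical black line is the fold change of the fit, the dashed lines mark 1.5-fold, and markers show the replicate number. LINC00662 was placed in all 3 panels by the rule, so that its presence there is not a result. The mean of LINC01819 with NP is set by 1 pair at 1.92.

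With all 3 compounds, 5 LINC RNAs lay above the vehicle in all 9 pairs and 2 below it, of 248 with complete values. That is 2.02% against 1.53% of all features for the higher direction and 0.806% against 1.28% for the lower. The 5 were LINC00662, LINC00673, LINC01019, LINC01389 and LINC01667, and the 2 were LINC00924 and LINC01711. A second probe of LINC01667, also above background on all 15 arrays, showed 0.17 with NP, -0.07 with MET and -0.32 with PHEN. The probes of this gene thus disagree in direction with both biguanides. LINC01019 lay higher by 0.27 with NP, 0.29 with MET and 0.35 with PHEN, and LINC00673 by 0.34, 0.09 and 0.28. LINC00924 lay lower, with -0.23 with NP, -0.14 with MET and -0.32 with PHEN. Of these 7 only LINC00662 passed the threshold against a vehicle, while LINC00924 and LINC01711 passed it between DMSO and water (0.79 and -0.96). The 6 pairs of the biguanides share 3 water arrays and are not independent of one another.

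Differences between the changes under NP and under each biguanide were tested in the same fit. Against MET, 0 of the 252 LINC RNAs and 0.0% of all features passed. At an unadjusted p of at most 0.05 there were 5 (1.98% against 2.78%), and 0 with 1.5-fold in addition (against 1.34%). Against PHEN, 0 passed as well (0.0% of all features), with 5 at an unadjusted p of at most 0.05 (1.98% against 2.43%). Of these, LINC00475 (0.65) and LINC02696 (0.64) differed by 1.5-fold or more, which was 0.794% against 1.79%. LINC02696 lay higher with NP than with DMSO and lower with MET and PHEN than with water, by 0.45, -0.12 and -0.19. The interval of the difference lay within 1.5-fold for 53 LINC RNAs against MET and for 65 against PHEN, and for the others these arrays do not show that the compounds acted alike.

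The same arrays recorded a response in genes of the integrated stress response. All 7 of ASNS, CHAC1, TRIB3, SESN2, DDIT3, NUPR1 and JDP2 lay higher with each compound, with a median log2 fold change of 1.16 with NP, 1.11 with MET and 1.41 with PHEN. Of the 7, 4 passed the threshold with NP, 0 with MET and 5 with PHEN, and all 7 had an unadjusted p of at most 0.05 in each comparison. Without NP replicate 2 the calls under NP were 0 of 7, with all 7 still higher at an unadjusted p of at most 0.05. No stress gene passed with any compound without replicate 1, 2 or 3 of every group, with no replicate block, with no filter on dim probes or with only the groups compared, and with pairing within each set 7 passed under NP, 1 under MET and 5 under PHEN. SESN2, which restrains mTORC1, had a log2 fold change of 1.16 with NP, above the 0.83 of LINC00662. These genes were chosen with earlier results on these arrays known.

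Among 19 LINC genes with a described role, 16 were detected on all 15 arrays. LINC-ROR, described in the maintenance of pluripotency, was above background on 13 arrays and LINC01133 on 12, and LINC00461 was not analysed here. None of the 16 passed the threshold with any compound, and only LINC00467 with MET had an unadjusted p of at most 0.05. Under NP the changes ran from -0.31 for LINC00511, an RNA associated with proliferation in breast and lung tumors, to 0.34 for LINC00673. Under MET they ran from -0.32 for LINC00467 to 0.38 for LINC01234, and under PHEN from -0.30 for LINC00511 to 0.28 for LINC00673. LINC-PINT, which is induced by p53, lay at 1.23 on average and differed by 0.17 with NP (SE 0.10), -0.08 with MET and -0.06 with PHEN. LINC00473 differed by -0.15 with NP and -0.03 with PHEN, and by -0.20 in each of the 3 MET pairs (SE 0.11, adjusted p = 1.00). LINC00518, whose RNA is used together with PRAME to tell melanoma from benign moles, differed by -0.07, -0.10 and -0.12 with NP, MET and PHEN. Of 22 noncoding RNAs with other names, 20 were tested and 0 passed in limma with any compound. At an unadjusted p of at most 0.05 there were 1, 0 and 0 with NP, MET and PHEN, and the 1 was GAS5 (0.23, SE 0.10). Under NP the changes of the 20 ran from -0.49 for BANCR to 0.33 for MALAT1, a nuclear RNA of speckles (SE 0.20).

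Several LINC RNAs differed more between arrays of 1 group than between compound and vehicle. On replicate 1 of water and MET, LINC01001 read 8.39 and 8.94 against 5.44 to 6.37 on the other 13 arrays, and LINC01356 read 9.89 and 10.1 against 7.97 to 8.73. LINC01201 and LINC00644 were also more than 1 above both other replicates on these 2 arrays, which were those with the most LINC genes detected. The 2 LINC RNAs that differed by over 1.5-fold with PHEN were LINC01201 (-0.97, SE 0.58) and LINC01001 (-0.80, SE 0.61), and the pairs of LINC01001 were -2.48, -0.15 and 0.22. In both RNAs the pair with water replicate 1 differed most. Those past 1.5-fold with MET were LINC01201 (0.65, SE 0.58) and LINC00923 (0.63, SE 0.51). On replicate 3 of DMSO and NP, which shared a slide, 6 LINC RNAs lay more than 1 above both other replicates of their group and 4 more than 1 below. LINC00923 read 1.75 and 1.46 there, against -0.06 and 0.10 with DMSO and 0.35 and 0.41 with NP on the other slide, and LINC01389 read 0.33 and 0.87, against -1.31 and -1.46 with DMSO and -1.31 and -0.69 with NP. LINC01088 read 3.38 and 2.98, against 5.07 and 4.64 with DMSO and 5.19 and 4.99 with NP. The part of the slides and of the independent experiments in these values cannot be told apart for replicate 3.

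Levels also differed between the 2 vehicles. With DMSO against water, 25 of the 252 LINC RNAs passed the threshold (9.92%), 8 higher and 17 lower with DMSO. Of all features 10.6% passed, 754 higher and 2084 lower, so that most were lower there too. The balance of the LINC RNAs depended on the scaling. It was 11 higher and 10 lower after quantile normalization (8.33% against 8.98% of all features). After normexp it was 6 higher and 5 lower (4.37% against 4.45%). This comparison was added after the levels had been seen, and solvent, slide and set of arrays cannot be told apart in it. LINC02202 read -2.22, -2.31 and -2.75 with DMSO and -0.40, -1.06 and -1.26 with water (-1.52, SE 0.20, adjusted p = 0.00398), and its NP arrays lay with DMSO while its MET and PHEN arrays lay with water. LINC03098 read -1.43, -1.22 and -1.55 with DMSO and -2.25, -2.26 and -2.28 with water (0.86, SE 0.10, adjusted p = 0.00339). LINC01000 lay 0.85 higher with DMSO and LINC02946 lay lower, with -1.13. LINC00662 read close to 0 with both vehicles, with means of 0.07 and 0.02. The number past the threshold in this comparison was 72 (28.6% against 24.6% of all features) when the replicate number was paired within each set of slides only. It was 0, 0 and 54 without replicate 1, 2 and 3, where 0, 0 and 5052 of all features passed.

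**Figure D4:**
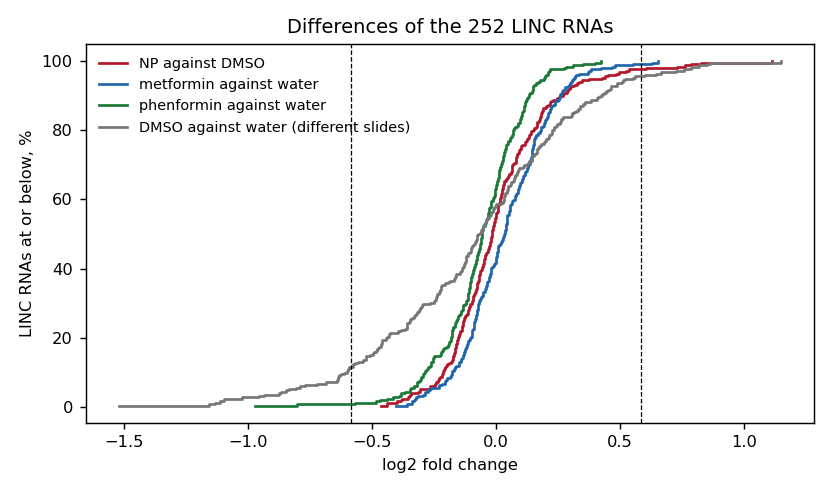
Cumulative share of the 252 LINC RNAs (vertical axis, percent) at or below a log2 fold change (horizontal axis) in 4 comparisons, with dashed lines at 1.5-fold. Past 1.5-fold lie 6 LINC RNAs with NP, 2 with metformin, 2 with phenformin and 40 (15.9%, against 22.8% of all features) with DMSO against water, whose arrays were on different slides. The detection filter of all features was looser than that of the LINC RNAs.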

How the data were processed

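Each array was labeled with Cy3, hybridized, and extracted by the authors with Agilent Feature Extraction (version 9.1 per the labels, 10.7.3.1 per the file headers), which gave background-subtracted intensities without normalization between arrays. A deposited table of log2 values normalized by the authors at the 75th percentile was used as an alternative. Control spots were removed, outlier spots were set to missing, spots of a probe were averaged, and log2 of the intensity minus the 75th percentile of the array was used. Symbols came from RefSeq accessions (31104 of 33080 probes with an accession matched). A feature was kept if its probe was flagged well above background on 3 of 3 arrays in any group and had 8 or more values, which left 26826.

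With limma 3.58.1 (R 4.3.3), 1 linear model of group and replicate number was fitted to the 15 arrays, tests were two-sided, and p-values were adjusted after Benjamini-Hochberg across the whole table. A limma p-value is meant wherever a p is printed, except where the methods' paired test is named, and limma values of incomplete features rest on the arrays present. The fit was run on simulated data with 1 replicate effect shared by all groups. That simulation cannot show how the fit behaves where replicate effects differ between the sets of slides. Tables and figures used Python 3.11.15, pandas 2.3.3, numpy 2.4.6, scipy 1.17.1 and matplotlib 3.10.9. Same-numbered arrays deviated together within a set of slides (r = 0.216 to 0.855 over 12 pairs of arrays) but not across sets (r = -0.186 to 0.227 over 18 pairs). The record of the series speaks of independent experiments, from which the pairing within a set was taken. The main model nevertheless shared its replicate term across the sets, although the arrays did not deviate together there. The SEs and intervals printed come from that model, and a replicate term within each set was an alternative.

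The LINC RNAs, the lists and the tests were chosen with earlier results of these data known. The rule for naming took LINC00662, RNAs past the threshold, up to 5 in each direction with an unadjusted p of at most 0.05 and 1 direction in all pairs, the 10 brightest, those at the edge of detection and the lists. LINC00475, LINC00592, LINC00310, LINC01725, the RNAs of single arrays, those in all 9 pairs, those with a motif and those in DMSO against water were chosen after their values were seen. Alternatives were the replicate block, slides, background correction, normalization, filters, probes, samples in the fit, the methods' paired test and each replicate left out. Precision is limited by n = 3, and for dim probes also by their distance from background. Coordinates of the array design (hg19) were not used.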

Additional observations from a re-analysis of the deposited data

How the results depend on the processing

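With no replicate block, and with the replicate block within each set of slides, LINC00662 remained the single call under NP, and MET and PHEN remained at 0. The count under NP fell to 0 with no filter on dim probes, with only the groups compared, with the methods' paired test after Benjamini-Hochberg adjustment, without NP replicate 2, and without each replicate in turn (0 to 0). It was 3 by the unadjusted limma p, or 1.19% against 2.33% of all features. The methods' paired test without adjustment gave 1 of 249 with MET, where 124 of 26755 features passed. The unadjusted limma p gave 2 for NP against PHEN, or 0.794% against 1.79% of all features. All features called were also 0 in each setting where the NP count was 0. For DMSO against water, 25 (2838 of all features) became 72 (6592) with the block within each set, 60 (5868) with a slide term, 11 (1195) with normexp, 15 (2099) with no filter, 76 of 479 (2838) with LINC genes above background in at least 1 group, 0 (0) with only these groups and 0 to 54 without a replicate. Why these counts moved was not tested, except that the unadjusted p is by construction less strict. The other 80 counts and all 40 medians moved by less than 1.5 times or by less than the spread. Of 262 values of named RNAs under an alternative, 255 kept direction and side of the threshold, 7 of LINC00662 lost the call, and 0 reversed. These RNAs had 1 direction in all pairs by the rule, so that leaving out a replicate of every group could not reverse them. Several settings left the fold change itself unchanged. Apart from LINC00662 under NP none had a call to lose, so that these counts are no test of stability. Normexp made 10 of 17 named values over 1.5 times smaller, among them LINC01777 from -0.35 to -0.08, LINC00858 from -0.29 to -0.08, LINC00882 from -0.34 to -0.11, LINC02696 from 0.45 to 0.17 and LINC01819 from 0.79 to 0.25, whereas LINC00662 under NP went from 0.83 to 0.69. Dim probes have wide errors, and the number of arrays limits all comparisons.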
